A study of Mus musculus with 3 samples.

Results

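Nrf2 binding around quinone reductase, esterase and glutathione transferase genes was examined in mouse embryonic fibroblasts by chromatin immunoprecipitation followed by sequencing (ChIP-seq). The genes were Nqo1, Esd, Gstm1, Gsta4 and Gstp1. Regions were assigned to them when the highest position fell in a window of mm9, which took in the gene or its cluster and about 50 kb on each side. Of the 1256 regions in the list for the whole series, 9 met this rule. The genes were chosen by the regions already seen near them in this list, with their positions and heights known, so both are given as a description without a test. All cells were Keap1-/- fibroblasts of the CD-1 strain, grown in medium with serum and given no other treatment in the labels. The 3 libraries were made with a rabbit monoclonal antibody to the C-terminal domain of Nrf2, a rabbit polyclonal antibody to its N-terminal part, and a control. The control is tied to an IgG antibody in its sample label and called input DNA in the design text. The labels give an adult age for these embryonic cells. There was 1 library of each kind, and the deposited list gives 1 height per region for the series as a whole. No region could therefore be given a value per antibody, an enrichment over the control or a replicate error, and the depth is unknown. The cell type could not be checked against marker genes, since no expression was measured.

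Nrf2, a transcription factor of the basic leucine zipper family, pairs with small Maf proteins on DNA sequences called antioxidant response elements. Keap1 normally delivers Nrf2 for degradation, and cells without Keap1 keep it stable. Among the genes that Nrf2 is best known for are enzymes that make reactive chemicals harmless. Nqo1 reduces quinones in a single step that avoids semiquinone radicals. Esd, S-formylglutathione hydrolase, is an esterase that acts in the glutathione-dependent removal of formaldehyde. Gstm1, Gsta4 and Gstp1 belong to the mu, alpha and pi classes of glutathione transferases, which join glutathione to electrophiles. Gsta4 is known for its activity on 4-hydroxynonenal, a product of lipid peroxidation.

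Sequence near the start sites of these genes was taken from RefSeq promoters of the GRCm38.p6 build, each covering 250 bases before and 50 after a start. This is a later build than that of the regions, so whether a region covers a promoter was not determined, and the positions of the builds were not compared. Of the 5 genes, 4 had an entry, namely Nqo1, Esd, Gstm1 and Gstp1. The antioxidant response element was searched as TGACNNNGC on both strands. A looser form, TGANNNNGC, contains it and was searched in the same way. The 250 bases upstream of Nqo1 and Esd are shown because these genes had the tallest regions. In neither promoter was there a match to the core or to the looser form. Sequence further from the start and the sequence of the regions were not searched, so elements there would not have been seen.
Nqo1, chr8:107403206-107403455, minus strand: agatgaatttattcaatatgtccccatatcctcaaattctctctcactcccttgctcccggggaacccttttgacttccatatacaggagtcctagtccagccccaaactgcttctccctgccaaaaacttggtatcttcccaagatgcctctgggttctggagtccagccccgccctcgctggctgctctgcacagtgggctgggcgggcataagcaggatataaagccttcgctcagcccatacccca
Esd, chr14:74732047-74732296, plus strand: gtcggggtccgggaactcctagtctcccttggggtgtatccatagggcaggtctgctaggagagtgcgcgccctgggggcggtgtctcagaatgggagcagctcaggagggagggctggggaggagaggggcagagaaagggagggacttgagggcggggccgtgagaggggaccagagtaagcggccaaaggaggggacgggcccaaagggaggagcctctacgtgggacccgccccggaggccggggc

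Stretches of the Gstp1, Gstp2, Gstm5 and Gstm7 promoters are shown because they hold a match. In the pi class, the capitals mark TGANTCAGC, a form of the element whose letters here include the AP-1 sequence TGACTCA on the opposite strand. This form was chosen after the promoters were seen. In the mu class, the capitals mark the core TGACNNNGC.
Gstp1, chr19:4037953-4038011, minus strand: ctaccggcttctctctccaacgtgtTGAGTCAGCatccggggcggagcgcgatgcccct
Gstp2, chr19:4042277-4042335, minus strand: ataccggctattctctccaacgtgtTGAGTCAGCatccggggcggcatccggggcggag
Gstm5, chr3:107895787-107895845, plus strand: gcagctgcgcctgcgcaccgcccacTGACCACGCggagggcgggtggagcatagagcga
Gstm7, chr3:107931710-107931768, minus strand: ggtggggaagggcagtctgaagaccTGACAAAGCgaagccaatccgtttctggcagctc

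Of the 9 regions, those at Esd, Nqo1 and Gstp1 were the tallest. Esd, Nqo1, Gstp1 and Gsta each had 1 region, with heights of 47.388, 27.308, 22.497 and 12.84. The Gstm cluster had 5 regions, with heights from 8.19 to 13.82. The single Gsta region thus lay within the range of the Gstm regions, and the other single regions lay above it. The median height of the 9 regions was 12.84, beside 10.1 over all 1256. Height is the authors' own value for each peak, in a unit that is not given in the sources used here, and is used only to rank regions within the list. Of the 9 regions, 3 were among the tallest 10% of the list, the 126 regions of height 18.576 or more. Of the 9, 7 reached a height of 9, beside 70.5% of the whole list, so this share was near that of the list.

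**Figure D1:**
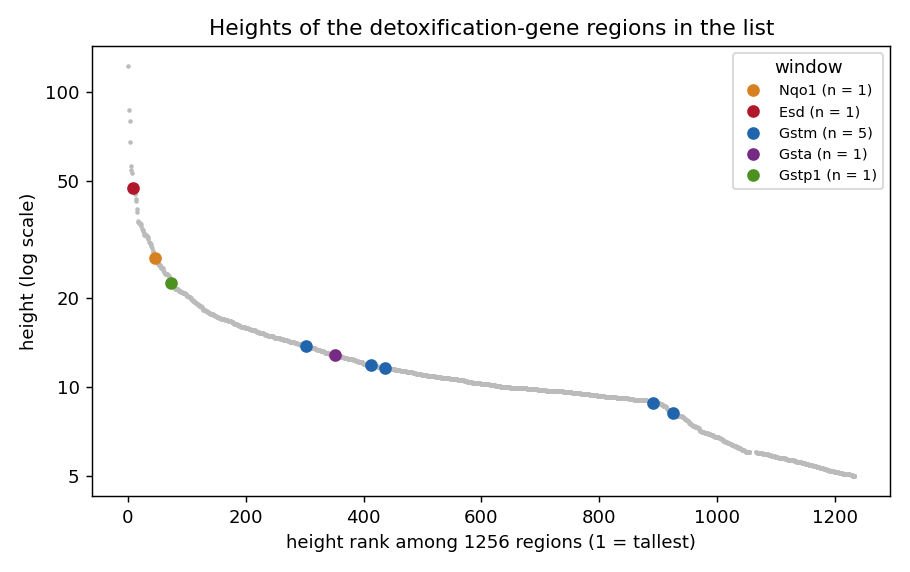
Height (log scale) against height rank for all 1256 regions (grey points), with the regions of the 5 detoxification windows in colour. Esd, Nqo1 and Gstp1 sit on the steep part at ranks 9, 46 and 74, and the Gsta region and 3 of the Gstm regions between ranks 302 and 437, while the other two Gstm regions are below a height of 9.

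The region at Esd was the tallest of the set. It lay on chromosome 14 from 75133233 to 75133542, with its highest position at 75133363 and a height of 47.388. Only 8 regions of the list were taller, which gave it rank 9 of 1256, and the next lower height in the list was 47.376. It also stood alone. The nearest neighbours were 6473 kb below it, with a height of 9.20, and 505 kb above it, with a height of 10.8. When the chromosomes were divided into windows of the same length, 120 kb, 4.63% of 21664 windows held at least 1 region and 0.0323% held one as tall as this.

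The region at Nqo1 was the second tallest of the set. It lay on chromosome 8 from 109927338 to 109927711, with its highest position at 109927552. Its height of 27.308 gave it rank 46 of 1256. Windows of 120 kb with a region at least as tall made up 0.171% of those in the genome. Its nearest neighbour below was 263 kb away with a height of 17.0, rank 162, and the next region above was 3514 kb away. The Nqo1 window itself ended 196 kb short of that lower neighbour, so it held no other region.

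The region in the Gstp1 window was the widest of the 9. It lay on chromosome 19 from 4045915 to 4046385, a width of 470 bp, with its highest position at 4046184. Its height of 22.497 gave it rank 74 of 1256. Of 110 kb windows in the genome, 4.22% held a region and 0.262% held one at least as tall. Another region, with a height of 9.86 and rank 684, lay 33.0 kb outside the window on its upper side.

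In GRCm38 the alpha-class cluster includes Gsta4, Gsta1 and Gsta2, and the next protein-coding gene above Gsta1 is Gm3776. The Gsta window, set around this cluster in mm9, had 1 region in 270 kb. It lay on chromosome 9 from 78039516 to 78039871, with its highest position at 78039689. The height of 12.84 gave it rank 351 of 1256, at 27.9% of the list. Windows of 270 kb held at least 1 region in 9.67% of cases and one as tall as this in 3.08%. The next regions were 441 kb below and 21021 kb above it, so it was the only listed region in the window.

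The Gstm window differed from the others in having several regions, and at 280 kb it was also the longest. Per 100 kb it held 1.79 regions, beside 0.833 at Nqo1 and at Esd, 0.909 at Gstp1 and 0.370 at Gsta. The mu-class cluster contains Gstm5, Gstm7, Gstm6, Gstm3, Gstm2, Gstm1 and Gstm4, in this order in GRCm38. In order of position on chromosome 3 of mm9, the first region ran from 107742444 to 107742726 with a height of 8.19, rank 925. The second ran from 107767642 to 107767971 with a height of 13.82, rank 302, the tallest of the cluster. The third, from 107808889 to 107809214, had a height of 11.622, rank 437. The fourth, from 107816148 to 107816485, had a height of 11.828, rank 412. The fifth, from 107828180 to 107828554, had a height of 8.843, rank 892. The 3 inner regions were thus taller than the outer pair, which were both under a height of 9. Windows of 280 kb with a region as tall as the second made up 2.73% of those in the genome. The highest positions were 25.3, 41.2, 7.29 and 12.1 kb apart from one region to the next. The closest regions were the third and the fourth. A further region, with a height of 12.2 and rank 390, lay 13.6 kb below the window and was not counted. The next region above the fifth was 8495 kb away.

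**Figure D2:**
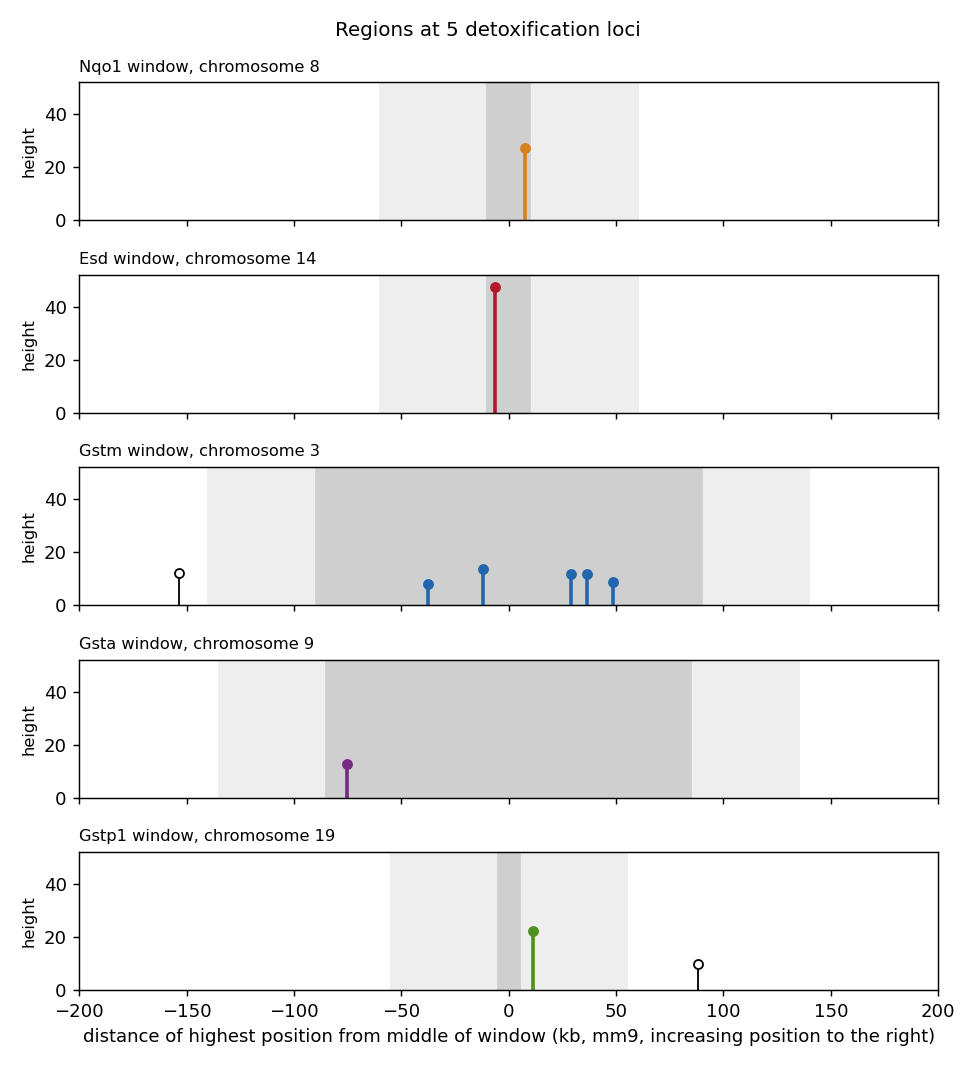
Height of each region against the distance of its highest position from the middle of the window (kb), in 1 panel per window. Light grey marks the window, dark grey the span left after taking 50 kb off each side, coloured stems the 9 regions and open symbols the nearest regions outside. The Gstm panel has 5 stems of 8.19 to 13.82 and the other panels 1 each.

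The Gstm window was chosen with its regions known, so its count is set beside the rest of the list as a description. Windows of 280 kb held at least 1 region in 9.94% of cases and at least 5 in 0.172%, which was 16 of 9279. Of those 16 windows, 13 contained regions from dense stretches, here chains in which 5 or more regions followed each other within 20 kb. Both definitions ask for 5 or more nearby regions, so much overlap was to be foreseen. None of the 16 contained a Gstm region, because a boundary between the fixed windows divided the cluster. The dense stretches held 121 of the 1256 regions of the list and none of the 9 detoxification-gene regions. At that share, few or none of 9 regions would be foreseen in them. Gaps of 24.9 and 40.9 kb between Gstm regions exceed the 20 kb limit, so for these 5 the outcome followed from the definition.

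**Figure D3:**
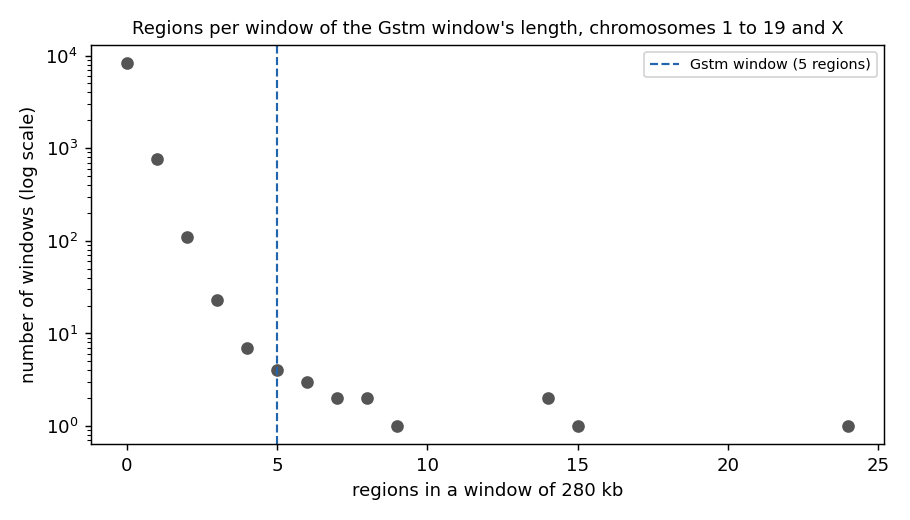
Number of windows of 280 kb (log scale) by the number of regions they held, over chromosomes 1 to 19 and X, with empty classes left out. The dashed line marks the 5 regions of the Gstm window, a number reached or passed by 16 of 9279 windows.

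With gaps of up to 50 kb allowed, the Gstm regions formed 1 of 13 stretches with at least 5 regions. With gaps of up to 20 kb there were 12 stretches, with 0 Gstm regions in them. The largest Gstm gap was 40.9 kb, so only the wider limit admitted these regions, and wide gaps at Gstm go with that limit. The comparison of stretches was chosen after the data were seen. The Gstm stretch covered 86.1 kb, and its median gap of 18.3 kb lay above those of the other 12 stretches, which ran from 0 to 14.0 kb. No Gstm region touched another, whereas 10 of the other 12 stretches contained touching regions. The highest position of the Gstm regions was off the middle by a median of 8.16% of the width. The other stretches had medians of 5.49 to 38.0% among regions that touch no other, and 2 of the 12 were lower than Gstm. These medians rest on as few as 2 and as many as 32 regions, and the lowest, 5.49%, on 3, beside 5 at Gstm. The median height at Gstm, 11.6, was within the range of the others, 8.04 to 33.2. With 1 stretch against 12, these differences were not tested.

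**Figure D4:**
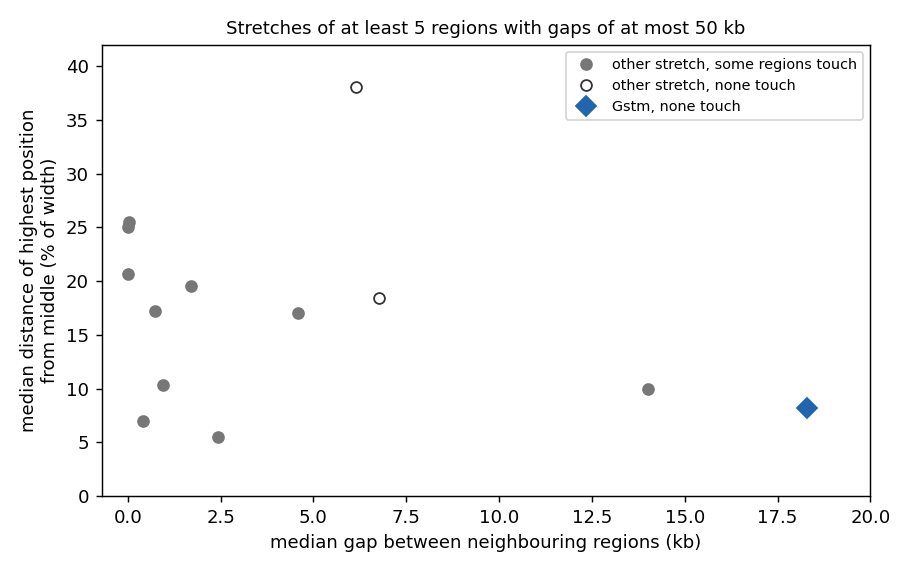
Median distance of the highest position from the middle of the region (% of width, regions touching no other) against the median gap between neighbouring regions (kb) for 13 stretches. The Gstm stretch is at 18.3 kb and 8.16%, to the right of all others, and is no stretch when gaps are limited to 20 kb. Open circles mark the 2 other stretches in which no regions touch. Some medians of the distance rest on as few as 2 regions.

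Widths of the 9 regions ran from 282 to 470 bp with a median of 337 bp, beside 345 bp for the list. None touched another region, as was the case for all but 75 regions of the list. The highest position was 1.27 to 12.0% of the width away from the middle, with a median of 7.37%, beside 4.77% for all regions of the list that touch no other. The Nqo1, Esd and Gstp1 regions had values of 7.37, 7.93 and 7.23%.

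Distances to start sites need an mm9 annotation and are not given here. A coarser placement came from the windows, whose bounds are rounded to 10 kb and whose flanks are approximate. After 50 kb was taken off each side, 8 of the 9 regions lay in the remaining span of the gene or cluster, and the Gstp1 region did not. The span was most of the window at Gstm (180 of 280 kb) and Gsta (170 of 270 kb). It was 20 of 120 kb at Nqo1 and at Esd and 10 of 110 kb at Gstp1. The windows were set with the regions known, so the count is a description. The Nqo1 region was 2.45 kb from the upper end of its 20 kb span. Nqo1 is on the minus strand and starts at that end. The Esd region was 3.36 kb from the lower end of a span of the same size, the end at which Esd, on the plus strand, starts. The Gstp1 region was 6.18 kb beyond the upper end of its span, on the upstream side of this minus-strand gene. In GRCm38 the next protein-coding gene on that side is Gstp2, followed by Gstp3. All 5 Gstm regions lay inside the span of the cluster, at least 41.6 kb from its ends. The Gsta region was 9.69 kb from the lower end of the 170 kb span, and in GRCm38 Gsta4 is the first of the Gsta genes from that end. Other protein-coding genes adjoin the members in GRCm38, Nfat5 and Nob1 at Nqo1 and Htr2a and Lrch1 at Esd. Cilk1 is next below Gsta4, the side of the lower end of the Gsta span, and Ndufv1 is next below Gstp1. Which gene a region serves was not measured.

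In the promoters, the core TGACNNNGC was present at 0 of the 4 genes with an entry, beside 14% of 27025 genes (12.4% of 32851 promoters). Over the 3 transferase clusters with Nqo1 and Esd, 14 of 15 genes had an entry and 2 held the core, Gstm5 and Gstm7. In Gstm5 it covered bases -42 to -34 before the start, and in 1 of the 2 Gstm7 promoters bases -129 to -121. The share of 14.3% was close to that of all genes. With the looser TGANNNNGC, Gstp1 was the only 1 of the 4 genes with a match, and 8 of the 14 cluster genes had one, beside 45% of all genes.

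The form TGANTCAGC was found in Gstp1 at bases -74 to -66 and in Gstp2 at bases -89 to -81, and in no other of the 14 cluster genes. Of all genes, 1.37% held it in a promoter. The form was chosen after these promoters were seen, so that share is given as a description and not as a test. The printed stretches of Gstp1 and Gstp2 shared 46 of 59 letters without gaps, so these neighbouring genes share sequence here and do not count as separate occurrences. The shorter TGACTCA overlaps this form and was also chosen after the promoters were seen. It was in the promoters of Gstp1, Gstp2 and Gstm5, beside 5.95% of all genes. A match describes letters only and was not measured to be bound.

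A wider list of 75 detoxification genes (other transferases, quinone and carbonyl reductases, aldehyde dehydrogenases, esterases, conjugating enzymes and efflux pumps) was counted in the same way. It includes the other genes of the Gstm, Gsta and Gstp clusters. Of these, 61 had a promoter entry and 9 (14.8%) held the core, which was near the 14% of all genes. Abcc4, an efflux pump, had a match in each of its 2 promoters. The other genes with a match had 1 each, among them Gsta3, an alpha-class transferase, Mgst1, a microsomal glutathione transferase, and Blvra, biliverdin reductase A. With an A required after the core, 4 of the 61 genes (6.56%) matched beside 3.45% of all genes. They were Gsta3, Pon2, Abcc2 and Blvra.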

How the data were processed

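ChIP-seq regions came from 1 list for the series. Each region has a start, end, highest position and height, and per the file headers the deposited height is a signal at the highest position. Positions are mm9 per the submitters' processing notes, printed unchanged, with no statement of whether the first base is 0 or 1. For the aligner, peak caller, thresholds, normalization, pooling of libraries, use of the control and depth, the sources used here give nothing.

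The genes, windows and lists were chosen with earlier results of these data known. Named were the 5 genes, the other genes of their clusters, every region in the windows, and genes of a 75-gene list with most matches (among equal numbers of matches, and with an A after the core, names were picked after their values were seen). Ranks are over all 1256 regions, ties sharing the lowest rank. Background windows tile chromosomes 1 to 19 and X up to the last region of each, whole windows only. Motifs were searched in RefSeq promoters (GRCm38.p6), matched by symbol. Gene order and strand came from the same assembly. Functions were tested on simulated data. With 1 library per group no test was possible. Alternatives changed window size, placement, height minimum, joining and motif. Tables were made with pandas 2.3.3 and numpy 2.4.6 and figures with matplotlib 3.10.9, in Python 3.11.15, with intervals from scipy 1.17.1.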

Additional observations from a re-analysis of the deposited data

How the results depend on the processing

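The 5 windows each kept at least 1 region when shortened by 25 kb on each side, with the tallest 628 regions and with heights of 9 or more. Counting any overlap in place of the highest position, or lengthening windows by 50 kb on each side, could only add regions. The 9 regions became 11 in lengthened windows and 7 with either height limit, where the outer pair of Gstm regions dropped out. Relative ranks of the 9 regions and shares of windows moved by less than their binomial intervals. Neither is a sampled proportion, so the intervals served only as a yardstick for the size of a change. None of the 9 regions touched another or lay in a dense stretch. The alternatives for ranks thus shortened the list without changing these regions, and little movement was to be foreseen. Motif counts depended on the motif. Of the 4 genes, 0 held TGACNNNGC and 1, Gstp1, held TGANNNNGC, TGANTCAGC or TGACTCA. Of 14 cluster genes, the 2 with the core became 0 with an A required after the core and 8 with TGANNNNGC. Of the 61 listed genes, the 9 with the core became 4 with that A, 31 with TGANNNNGC and 1 with TGANTCAGC. The forms TGANTCAGC and TGACTCA and ranking only regions that touch no other were chosen after the data were seen. So was the comparison of stretches, both its 50 kb limit and the other gaps (12 stretches at 20 kb, 15 at 100 kb). Distances to start sites were not run, for want of an mm9 annotation. No paired analysis was possible because there is 1 library per group and no value per library.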
